A study of Mus musculus with 4 samples.

Results

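The MYB, MYC and MAX group was followed across mouse effector Th1 and Th17 cells sorted by surface CD30, which belongs to the TNF receptors. The 7 genes were Myb, Mycn, Myc, Max, Mxd1, Mxd4 and Mxi1, out of 18193 genes named on the array. Every probe set annotated to them was taken, 17 of 45037 in all. The group was put together because Myb and Mycn were higher in CD30high than in CD30low Th17 cells, so the genes were chosen by these array signals, and that difference is described without a test.

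The cells had been polarised from CD4 T cells of the spleen over 6 days of culture. They were separated into CD30low and CD30high populations, with 1 array for each of the 4 populations. For Th1 cells IL-4 was neutralised and IL-12 and IL-2 were added. For Th17 cells IFN-γ and IL-4 were neutralised and IL-23, IL-1β and IL-6 were added. By the methods, such cells carried a transgenic receptor for an ovalbumin peptide and were stimulated with that peptide on irradiated splenocytes depleted of T cells, and the mice were young adults. Which receptor strain gave the cells of the arrays, and the sex of the mice, were not given in the sources used here. The labels give the starting cells as CD44low CD62Llow for the CD30low samples and CD44low CD62Lhi for the CD30high samples, whereas the methods describe naive CD62Lhigh cells throughout. If the labels hold, each CD30 ratio also compares different starting cells.

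No group had a replicate, so no difference between arrays has a replicate error or a p-value. For ratios, any signal under 100 was raised to 100. The call of higher or lower needed a ratio of 2-fold or more and 300 or more in the brighter of the pair. Paired values below are in the order CD30low, then CD30high. The only measure of precision was how far probe sets of 1 gene differed in their log2 ratio. The SD per probe set was 0.24 for the CD30 ratio in Th1 cells (3071 genes), 0.20 in Th17 cells (3010 genes), 0.29 for the ratio of Th17 over Th1 in CD30low cells (3110 genes) and 0.33 in CD30high cells (3112 genes). Signal levels of genes are compared between arrays for 1 probe set at a time; sums over marker lists add the signals of different probe sets and are compared between arrays only. In RNA from whole populations, fewer cells expressing a gene and less RNA per cell cannot be told apart.

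All 7 T cell markers, among them Cd3e and Cd4, were above 300 on every array. None passed the rule with CD30, but 6 of 7 had log2 ratios below 0 in Th17 cells (median -0.47; Lat -0.99, Cd3g -0.64) and 4 of 7 in Th1 cells (median -0.28), and their part in the ratios of Myb and Mycn was not tested. Tbx21, the Th1 lineage factor, had 2190 and 2352 on the Th1 arrays and 281 and 243 on the Th17 arrays, and Il17a was at 37.7 and 49.4 against 1398 and 14443. All 3 Th17 markers named on the array were higher in CD30high Th17 cells (median log2 ratio 1.38), where 3.94% of all genes tested were. Il17a was 10.3-fold higher, Rora had 951 and 2482 and Ccr6 had 136 and 333. The part of this shift in the ratios of Myb and Mycn was not tested. The gene of CD30 itself, Tnfrsf8, was dim, with 13.3 and 51.1 on the Th1 and 34.9 and 132 on the Th17 arrays. As 3 of the 4 signals were below 100, they do not check the sort.

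MYB is a transcription factor of blood cell progenitors, needed at several steps of T cell development, that recognises the core letters AACNG. MYC and its relative N-MYC (gene Mycn) become active when paired with MAX, bind the E-box letters CACGTG and drive cell growth, nucleotide synthesis and ribosome production. In T cells MYC is induced by antigen receptor and IL-2 signals and directs the metabolic switch of activation. MXD1, MXD4 and MXI1 pair with the same MAX, bind the same letters and repress through the SIN3 corepressor, so that the genes here encode 1 shared partner, its activating partners and its repressive partners, with MYB beside them.

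The promoters of the genes that moved most are shown first, because letters recognised by E2F factors, which drive genes of the entry into S phase, occur in the windows of both. Sequences are from RefSeq (GRCm38.p6), read 5′ to 3′ on the gene's strand from 250 bases before to 50 bases from the transcription start on. Mycn lies on the minus strand at chr12:12936093-12941836 and Myb on the minus strand at chr10:21124930-21160984. Of the others, Myc lies at chr15:61985341-61990361, Max at chr12:76937269-76962323, Mxd1 at chr6:86647044-86669234, Mxd4 at chr5:34176580-34187710 and Mxi1 at chr19:53310128-53373293. Capitals mark TTTGGCG, looked for on both strands. Of 32851 such windows of all genes, 1.56% held it.
Mycn (chr12:12941787-12942086, minus strand): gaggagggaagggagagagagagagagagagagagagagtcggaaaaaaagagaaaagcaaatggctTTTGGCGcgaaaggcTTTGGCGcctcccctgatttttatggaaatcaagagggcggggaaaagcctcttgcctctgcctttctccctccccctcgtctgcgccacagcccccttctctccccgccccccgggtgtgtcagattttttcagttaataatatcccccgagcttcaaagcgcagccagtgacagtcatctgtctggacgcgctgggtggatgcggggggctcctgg
Myb (chr10:21160935-21161234, minus strand): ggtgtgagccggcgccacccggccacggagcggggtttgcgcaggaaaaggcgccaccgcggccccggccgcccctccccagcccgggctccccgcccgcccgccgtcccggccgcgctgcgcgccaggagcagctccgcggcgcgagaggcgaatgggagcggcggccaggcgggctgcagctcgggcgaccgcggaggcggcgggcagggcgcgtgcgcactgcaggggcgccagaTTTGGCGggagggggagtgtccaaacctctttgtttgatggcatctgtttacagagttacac

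The Mycn window held TTTGGCG at 2 places, from 183 to 177 and from 168 to 162 bases before the transcription start. The Myb window held it once, from 12 to 6 bases before the start. These letters were chosen after the sequences had been read. A match is a description of the letters and not evidence of a bound factor.

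RefSeq gave 8 windows for 6 of the 7 genes and none for Myc, whose promoter was not searched for any motif. The E-box CACGTG was present in 2 of 8 windows, those of Max and Mxd4, and in 7.15% of all windows. Each is shown with 60 bases and the E-box in capitals, because it is the letters of the MYC and MAX pair in the promoters of MAX itself and of an antagonist.
Max (chr12:76962219-76962278, minus strand): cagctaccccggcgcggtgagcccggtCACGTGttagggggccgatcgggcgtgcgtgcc
Mxd4 (chr5:34187897-34187956, minus strand): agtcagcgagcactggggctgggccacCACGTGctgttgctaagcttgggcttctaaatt

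In Max the E-box spanned the transcription start, and in Mxd4 it lay from 219 to 214 bases before it. The MYB core AACNG was in 7 of the 8 windows and in 80.3% of all windows, so its presence sets no gene apart. In the Mxd4 window the MYB core began at the base after the E-box, and no match of 1 motif overlapped a match of another in these windows.

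**Figure D1:**
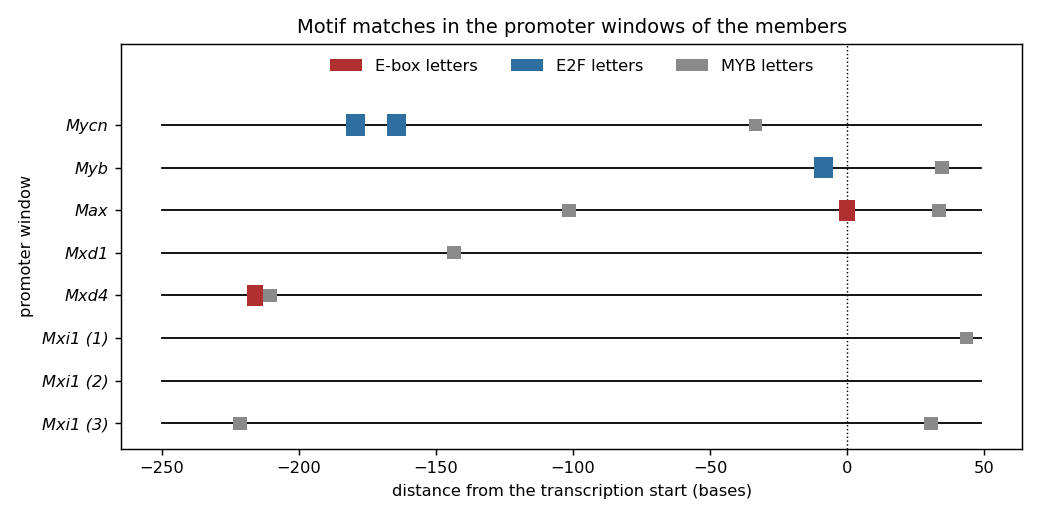
Positions of the 3 motifs (coloured blocks) in the promoter windows of 6 genes (y axis; Mxi1 has 3 windows, a pair of which overlap), against the distance from the transcription start in bases (x axis). The E2F letters lie in the windows of Mycn and Myb and the E-box in those of Max and Mxd4.

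Myb was higher in CD30high cells of both lineages, on each of its 3 probe sets. Its brightest probe set (1421317_x_at) had signals of 1536 and 3696 on the Th1 arrays and of 1269 and 8923 on the Th17 arrays. The CD30high arrays were thus the brighter ones in each lineage, and both lay above both CD30low arrays. The log2 ratio of CD30high over CD30low was 1.27 in Th1 cells (2.41-fold) and 2.81 in Th17 cells (7.03-fold).

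The other Myb probe sets gave the same direction. One of them (1450194_a_at) had 1004 and 2609 on the Th1 arrays and 1358 and 9345 on the Th17 arrays, a fold of 2.6 and of 6.88. The dimmest (1422734_a_at) had 337 and 1687 in Th1 and 294 and 1970 in Th17 cells, a fold of 5.01 and of 6.69. The 3 probe sets agreed closely on the size in Th17 cells and differed on it in Th1 cells. The suffix x marks probe sets that can share probes with other transcripts.

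Mycn had the larger ratio of the pair in Th17 cells and the smaller one in Th1 cells. Its brightest probe set (1417155_at) had 335 and 674 on the Th1 arrays and 143 and 1490 on the Th17 arrays. The CD30low Th17 array was the dimmest of the 4 and the CD30high Th17 array the brightest. The log2 ratio was 1.01 in Th1 cells (2.01-fold), just past the limit of 2-fold, and 3.38 in Th17 cells (10.4-fold).

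The Mycn calls rest on that probe set. The other probe sets of the gene did not go above 142. One had 97.6 and 142 on the Th1 and 52.5 and 87.9 on the Th17 arrays, and the other 19.5 and 61.3, then 90.1 and 98.7. Both stayed below 100 on the Th17 arrays and give no ratio there. With the mean of the log2 values of the 3 probe sets, Mycn had a log2 ratio of 0.51 in Th1 and of 1.13 in Th17 cells, the latter no longer reaching a signal of 300.

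Myc, the family member long linked to T cell activation, was ordered by lineage rather than by CD30 alone. The single probe set annotated to it had 2212 and 3323 on the Th1 arrays and 4539 and 6030 on the Th17 arrays. Both Th17 arrays were above both Th1 arrays. The CD30high array was the brighter one in each lineage, with log2 ratios of 0.59 in Th1 (1.5-fold) and 0.41 in Th17 cells (1.33-fold), beyond the SD between probe sets but short of the 2-fold limit.

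Max, the obligate partner, was lowest where Mycn and Myc were highest. Its single probe set had 839 and 783 on the Th1 arrays and 808 and 505 on the Th17 arrays. The 3 highest values lay within 0.10 on the log2 scale, and CD30high Th17 cells stood below them. The log2 ratio was -0.10 in Th1 cells and -0.68 in Th17 cells (1.6-fold lower), short of the limit.

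**Figure D2:**
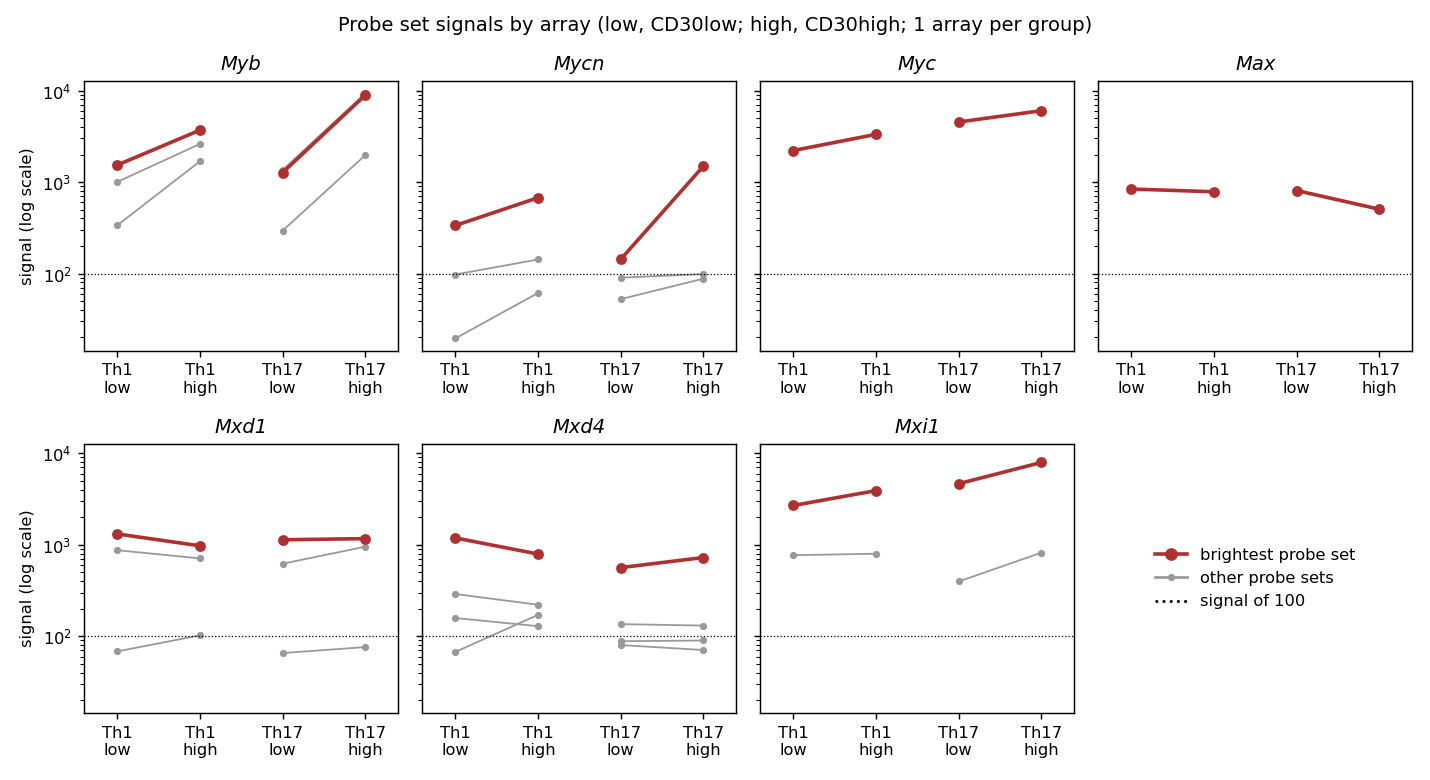
Signal (y axis, log scale) of the 17 probe sets of the 7 genes on the 4 arrays (x axis), with lines joining CD30low and CD30high cells of 1 lineage; red is the brightest probe set of a gene and grey the others. The lines of Myb and Mycn climb from CD30low to CD30high, steepest in Th17 cells (Mycn, 143 to 1490), while Max ends lowest in CD30high Th17 cells (505).

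The antagonists split. Mxi1 had 2689 and 3909 on the Th1 arrays and 4653 and 7945 on the Th17 arrays on its brightest probe set. The arrays stood in the same order as for Myc. Its log2 ratios were 0.54 (1.45-fold) and 0.77 (1.71-fold), short of the limit.

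A second Mxi1 probe set had 769 and 798 in Th1 and 397 and 819 in Th17 cells. It passed the rule in Th17 cells (2.06-fold) and gave a log2 ratio of 0.05 in Th1 cells. The probe sets also differed on the lineage, because the second one was lower in CD30low Th17 than in CD30low Th1 cells.

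Mxd1, an antagonist that rises in differentiating cells, varied least when brightest probe sets were compared. Its brightest probe set had 1313 and 974 on the Th1 arrays and 1134 and 1167 on the Th17 arrays. The log2 ratios were -0.43 and 0.04. The Th1 ratio was beyond the SD between probe sets of 0.24 and the Th17 ratio was under the SD of 0.20. Each array was within 0.22 of the next in the order of levels. Another probe set had 872 and 709 in Th1 cells and 621 and 953 in Th17 cells, with log2 ratios of -0.30 and 0.62. Both were beyond these SDs and short of the 2-fold limit. A further probe set did not go above 102.

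Mxd4, an antagonist expressed in resting and differentiated cells, was highest in CD30low Th1 cells. Its brightest probe set had 1188 and 792 on the Th1 arrays and 563 and 726 on the Th17 arrays. The log2 ratio was -0.58 in Th1 cells (1.5-fold lower) and 0.37 in Th17 cells (1.29-fold higher). The CD30high arrays of the lineages lay 0.13 apart on the log2 scale, under the SD of 0.33. Another probe set had 289 and 221, and then 136 and 131, which gave -0.39 and -0.05. On that probe set CD30high Th17 cells were 1.69-fold below CD30high Th1 cells (log2 ratio -0.76), so the probe sets differed on this step. The other Mxd4 probe sets were between 67.3 and 171.

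Counted over the group, 2 of 7 genes were past the rule as higher in CD30high Th1 cells, Myb and Mycn, and 0 as lower, where 0.794% and 0.486% of 7813 genes tested were. Among probe sets, 4 of the 11 that reached 300 were higher and 0 lower, beside 0.858% and 0.524% of all probe sets tested. In Th17 cells, where the genes were chosen, 2 of 7 were higher and 0 lower beside 3.94% and 3.66% of 7786 genes, and 5 of 11 probe sets were higher and 0 lower beside 3.59% and 3.68%. In both lineages the higher probe sets include every probe set of Myb, which measure 1 gene on the same arrays and are not separate results. The genes were chosen with results of all arrays known, and the counts describe the choice as well as the cells. Of 7372 genes tested in both lineages, 27 were higher in CD30high cells of both lineages, Myb and Mycn among them.

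Placed among the 7813 genes tested in Th1 cells, Myb was at place 28 from the highest ratio, Mycn at 61, Myc at 312 and Mxi1 at 387. Mxd4 was at place 279 from the lowest and Mxd1 at 640. In Th17 cells, among 7786 genes, Mycn was at place 3 and Myb at 13 from the highest, and Max at 567 from the lowest.

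The CD30 log2 ratio in Th17 minus that in Th1 cells was 2.37 for Mycn and 1.55 for Myb. It was 0.95 for Mxd4, 0.47 for Mxd1, 0.23 for Mxi1, -0.18 for Myc and -0.58 for Max. Each value rests on 4 arrays and was not tested. Mycn and Myb were chosen for their higher signals in CD30high Th17 cells, and these differences hold the same signals. Their size therefore follows in part from the choice. The value of Mycn rests on its brightest probe set, since its other probe sets stayed below 100 on the Th17 arrays. The value of Myb was 1.41 and 0.42 on its other probe sets, because its probe sets differed in their Th1 ratios.

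**Figure D3:**
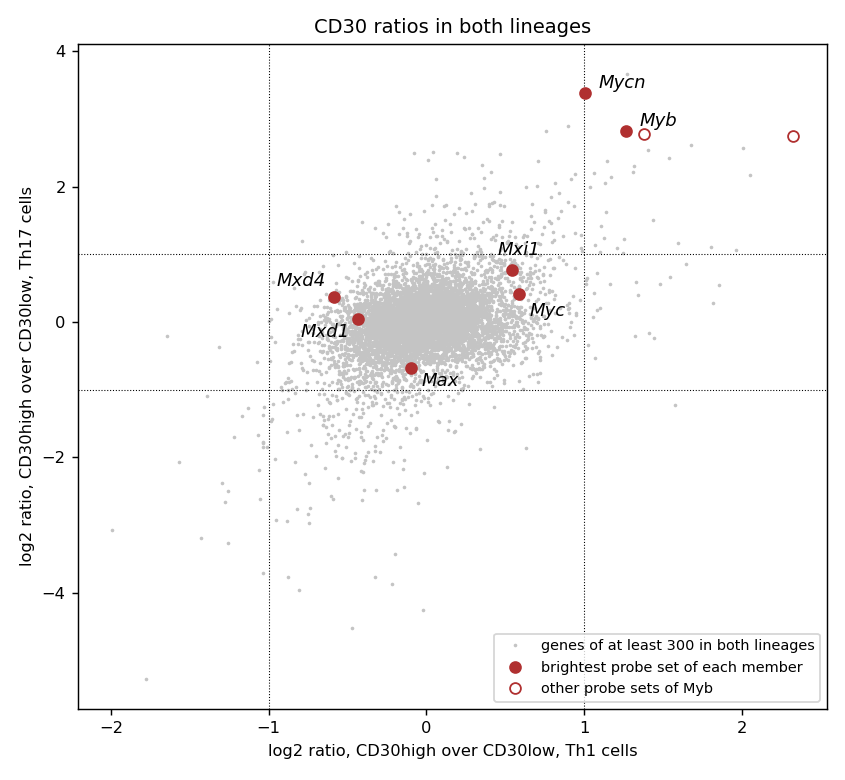
Log2 ratios of CD30high over CD30low cells in Th1 (x axis) and Th17 cells (y axis) for genes of at least 300 in both lineages (grey) and for the 7 genes (red); open circles are the other probe sets of Myb, and dotted lines mark 2-fold. Mycn (1.01 and 3.38) and Myb (1.27 and 2.81) lie at the upper right, and the other 5 genes lie within 2-fold on both axes.

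The genes with the pattern closest to Mycn and Myb were looked for among 8227 genes of at least 300 on any array, by the distance between log2 profiles over the 4 arrays after the mean of each gene was removed. The closest gene to Mycn was Myb (distance 0.70), followed by Maged1 (0.90) and Ptprk (0.95). Ptprk, a receptor tyrosine phosphatase gene, had 389 and 400.1 in Th1 and 136 and 780 in Th17 cells, so it shared the Th17 step and not the Th1 step. The closest genes to Myb were Shroom3 (0.46), Serpinf1 (0.53) and Gatm (0.56), and Mycn was at place 9. Serpinf1, a secreted serpin, had 789 and 2290 in Th1 and 1094 and 5840 in Th17 cells. Shroom3 reached 100 on 3 of the 4 arrays only, with 6.65 in CD30low Th1 cells. With 4 arrays such a distance describes the pattern and nothing more. Mycn and Myb were both chosen for their higher signals in CD30high Th17 cells, and the distance uses the same signals. Their closeness therefore follows in part from the choice. The profile of Mycn is that of its brightest probe set only.

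Between the lineages Mycn was lower in Th17 than in Th1 cells among CD30low cells and higher among CD30high cells, on its brightest probe set, whereas Myc was the higher in Th17 cells in both gates. Among CD30low cells, Myc was higher in Th17 cells (2.05-fold), and Mycn (2.35-fold) and Mxd4 (2.11-fold) were lower. That is 1 higher and 2 lower of 7, beside 3.53% and 5.83% of 7857 genes. Of 11 probe sets, 1 was higher and 2 lower, beside 3.68% and 5.76%. Myb had a log2 ratio of -0.27, under the SD between probe sets, and its other probe sets gave -0.19 and 0.43, so that no direction was settled.

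Among CD30high cells, Myb (2.41-fold), Mycn (2.21-fold) and Mxi1 (2.03-fold) were higher in Th17 cells. That is 3 higher and 0 lower of 7, beside 4.98% and 6.86% of 7979 genes. Of 11 probe sets, 4 were higher and 0 lower, beside 4.69% and 7.43%. The other Myb probe sets gave 3.58 and 1.17, the latter not past the rule. Myc had a ratio of 1.81 here, just short of the limit. The Mxi1 call rests on its brightest probe set, since the other gave 1.03. The 2 lineage comparisons share no array with each other, but each shares 1 array with each CD30 comparison.

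The lineages also differed in sex-linked transcripts, so cell lineage and the source of the cells cannot be told apart in these ratios. The Y-linked gene Eif2s3y had 1784 and 1640 in the Th1 cells and 1.41 and 9.39 in the Th17 cells. Xist, the RNA that coats the inactive X chromosome, had 14620 and 16223 in Th1 and 22350 and 22613 in Th17 cells on its brightest probe set. Its other probe sets differed more. One had 2745 and 4535 in Th1 and 10999.5 and 12436 in Th17 cells. The other had 687 and 1264 in Th1 and 5467 and 7871 in Th17 cells. On all of them the CD30high array was the brighter one in each lineage.

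The wider network was described through 9 lists of 100 entries, 93 of them named on the array. In Th1 cells 1 of the 86 list entries tested was higher in CD30high cells (1.16%) and 1 lower (1.16%), beside 0.794% and 0.486% of all genes tested. In Th17 cells 3 of 83 were higher (3.61%) and 3 lower (3.61%), close to the shares over all genes of 3.94% and 3.66%. The median log2 ratio over all measured genes was 0.00 in Th1 and 0.02 in Th17 cells.

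Most targets that MYC induces had log2 ratios above 0 in both lineages, and 1 of them passed the rule, in Th1 cells. In Th1 cells 25 of 29 measured targets had a log2 ratio above 0, with a median of 0.22, where 50.02% of all measured genes were above 0. In Th17 cells it was 24 of 29 with a median of 0.26, where 52.1% were. The median was between 0.16 and 0.22 in Th1 and between 0.25 and 0.29 in Th17 cells under the other scalings, floors and probe set choices. Shmt1, a serine hydroxymethyltransferase of folate metabolism, alone passed the rule, with 496 and 1065 in Th1 cells (2.15-fold). Its other probe sets above the floor in Th1 cells gave 1.77 and 1.8.

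In Th17 cells none of the 28 MYC-induced targets tested passed, beside 3.94% of all genes tested as higher and 3.66% as lower. The spermidine synthase gene Srm came closest, with 1565 and 2992 (1.91-fold), followed by the amino acid transporter gene Slc7a5, with 1064 and 1933 (1.82-fold), and the hexokinase gene Hk2, with 4865 and 7922 (1.63-fold). Those genes had 1.38, 1.41 and 1.67 in Th1 cells. Ncl, which encodes the nucleolar protein nucleolin, had 23973 and 23393 in Th1 and 18287 and 21108 in Th17 cells. Tfrc, the transferrin receptor gene, and Hk2 were past the rule between the lineages, at 3.59 and 2.78 in CD30low and 2.34 and 2.71 in CD30high cells.

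Of the genes that MYC represses, Cdkn1a, the gene of the cell cycle inhibitor p21, had 3675 and 7819 on the Th17 arrays (2.13-fold higher) and 2.14-fold on its other probe set. Cdkn1b, which encodes the inhibitor p27, had 2473 and 1409 and did not pass. The list held 1 higher and 0 lower of 4 tested in Th17 cells (median log2 ratio 0.37 over 5 measured), beside 3.94% and 3.66% of all genes tested. In Th1 cells 0 of 5 tested passed in either direction (median 0.01 over 6 measured).

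Of 5 measured targets of MYB, 4 were tested and 1 passed as lower in each lineage. Of all genes tested, 0.486% were lower in CD30high Th1 and 3.66% in CD30high Th17 cells. Gata3, the Th2 lineage factor, had 1176 and 484 on the Th1 arrays (2.43-fold lower) and 1333 and 211 on the Th17 arrays (6.3-fold lower). Its order of the 4 arrays was the reverse of that of Myb on its brightest probe set. The order of the CD30low arrays was not settled for either gene. Their log2 ratios of Th17 over Th1 there, 0.18 for Gata3 and -0.27 for Myb, were under the SD of 0.29. Another Myb probe set gave 0.43. Ada, the adenosine deaminase gene, had 940.5 and 521 in Th1 and 614 and 309 in Th17 cells, a fold of 1.81 and of 1.99 short of the limit. Bcl2, which protects T cells from death, had 12192 and 10813, and 13958 and 12701. The list medians were -0.43 and -0.17; with a floor of 50 the latter was -0.99.

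Among other proteins of the MAX and MLX network, Mxd3, a further MXD gene and one of dividing cells, had 1710 and 782 on the Th17 arrays (2.19-fold lower). Its other probe sets gave 1.62-fold and 1.59-fold lower, short of the limit, and in Th1 cells it had 1013 and 1018. Mnt, whose product pairs with MAX and represses, had 1106 and 1560 in Th1 and 979 and 1348 in Th17 cells. Mycl, the remaining MYC gene, was below 100 on every array. The list held 0 of 6 past the rule in Th1 cells (median -0.03). In Th17 cells 0 were higher and 1 lower of 5 tested (median -0.23 over 6 measured), beside 3.94% and 3.66% of all genes tested.

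**Figure D4:**
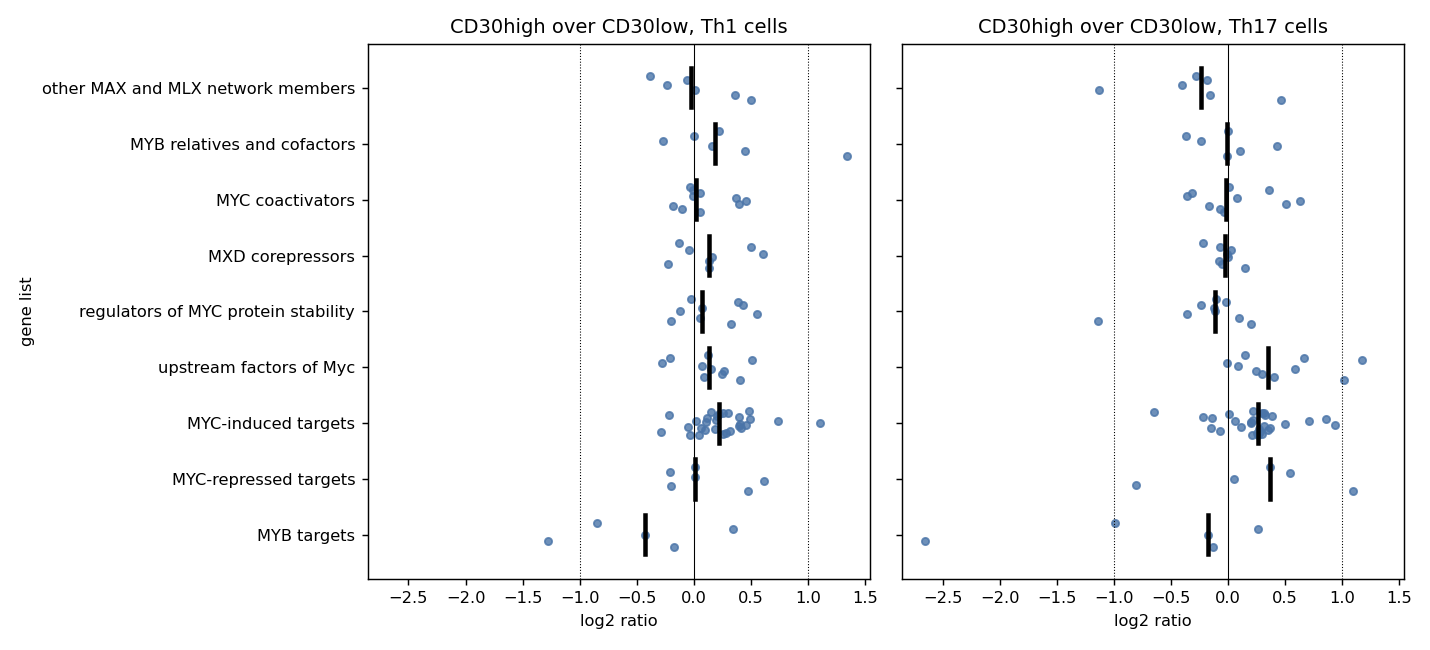
Log2 ratios of CD30high over CD30low cells (x axis) of the measured genes (points) of 9 lists (y axis) in Th1 (left) and Th17 cells (right); black bars are list medians and dotted lines mark 2-fold. The median of MYC-induced targets lies at 0.22 for Th1 and 0.26 for Th17, and the lowest point is Gata3 in Th17 cells (-2.66).

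Of factors upstream of Myc, Il2ra, which encodes the α chain of the IL-2 receptor, had 4495 and 5956 in Th1 cells and 7707 and 15524 in Th17 cells (2.01-fold higher in the latter). Rbpj, the DNA-binding factor of Notch signalling, had 3744 and 5342 in Th1 and 3124 and 7031 in Th17 cells (2.25-fold), with 2.49 and 2.63 on its other probe sets. The list had 2 higher and 0 lower of 10 tested in Th17 cells (median 0.35), beside 3.94% and 3.66% of all genes tested. It had 0 past the rule in Th1 cells (median 0.14). Of 9 measured regulators of MYC stability, Usp28, a deubiquitinase that protects MYC, alone passed in a CD30 comparison. It had 412 and 186 in Th17 cells (2.21-fold lower), where 3.66% of all genes tested were lower. The list medians were 0.07 for Th1 and -0.11 for Th17.

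The machinery around these factors showed no call in either CD30 comparison. This holds for 10 coactivators of MYC (medians 0.02 and -0.02 for Th1 and Th17), 8 measured corepressors of the MXD proteins (0.13 and -0.03) and 6 relatives and cofactors of MYB (0.19 and -0.01). Of all genes tested, 0.794% were higher and 0.486% lower in Th1 cells, and 3.94% and 3.66% in Th17 cells. At such shares, the absence of calls does not set lists this short apart. Mybl1, a relative of MYB, had 116 and 294 on the Th1 arrays, a 2.53-fold difference that stayed under a signal of 300, and 264 and 262 in the Th17 cells. Mybl2, the relative tied to the cell cycle, had 273 and 371 in Th1 and 377 and 405 in Th17 cells.

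Markers of other cell types moved with CD30 in Th17 cells, beside the ratios of Mycn and Myb, and their part in these was not tested. Of 7 fibroblast markers only Lum and Dcn were tested, and both were higher in CD30high Th17 cells, beside 3.94% of all genes tested. The other 5, collagens among them, were below 100 on every array. The summed signal of that list was 285 and 288 on the Th1 arrays and 1054 and 7774 on the Th17 arrays. Neutrophil markers went the other way. Of 8 such markers 5 were tested, and all 5 were lower in CD30high Th17 cells, beside 3.66% of all genes tested. Their list summed to 98.9, 267, 9365 and 2371 in the same order. The mast cell and basophil list summed to 378, 356, 739 and 991, and its members did not move together in Th17 cells. Mcpt8, a basophil protease gene, was higher, with 85.7 and 470.2, and Gata2 had 121 and 183, while Fcer1a had 151 and 29.4 and Cpa3 had 301 and 227. The erythroid and mast cell factor gene Gata1 was lower, with 602 and 51.

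Of 5 named markers of haematopoietic progenitors, 4 were below 100 on every array, Cd34 among them at no more than 29.1. The fifth, Kit, had 180 and 134 in Th1 and 113 and 44.3 in Th17 cells, and the list summed to between 172 and 271. Macrophage and monocyte markers summed to between 424 and 583, dendritic cell markers to between 108 and 159, and erythroid markers to between 202 and 741. The summed B cell signals ran from 2759 to 5369. Ighm was lower in CD30high Th1 cells, with 5154 and 2444, and had 4842 and 3224 on the Th17 arrays. Other B cell markers had higher signals in CD30high cells without reaching 300. Cd79b had 78.2 and 148 in Th1 and 74.2 and 139 in Th17 cells, Ms4a1 had 82.3 and 126 in Th1 and 60.6 and 94.6 in Th17 cells, and Ebf1 had 55.9 and 257 in Th17 cells. Cd79a and Pax5 were below 100 on every array. Natural killer and CD8 markers summed to 9345 and 7062 in Th1 and 1013 and 743 in Th17 cells. Of the 2 tested with CD30 in Th17 cells, Klrd1 was lower in CD30high cells, with 355 and 173 (2.05-fold). In Th1 cells no neutrophil, fibroblast or dendritic cell marker reached 100.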

How the data were processed

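RNA of 4 sorted populations was hybridized to Affymetrix mouse whole-genome arrays, 1 per population. The authors deposited linear intensity values, 1 per probe set. The submitters' processing notes name Affymetrix Expression Console, while the methods name the GeneChip Operating Software. Version, summary algorithm and scaling target: not given in the sources used here. After trimming 2% at each end, mean signals were 497 on each array, so that the scaling would hide a shift of most genes. Detection calls were not used here, and the number of arrays limits the precision.

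Groups came from the sample titles. Symbols came from the platform annotation, updated through gene identifiers to RefSeq, where 34741 of the 34945 single-symbol probe sets were found; 932 with several symbols and 9160 without one were not named. A gene was represented by its probe set with the highest mean signal. Signals below 100 were set to 100, a gene was measured at a signal of 100 and tested at 300 in either array, and called at 2-fold. The fold rule was run on simulated data with planted changes beyond its limit, which checks the computation and not the calls made here. No statistical test was made, since no group had a replicate. The text names every probe set of the 7 genes, list genes past the rule in a CD30 comparison (in Th1 and Th17 cells), other list genes as values, and for Mycn and Myb the 3 closest patterns. Genes short of the limit named in the text were chosen after their values were seen. The genes and lists were chosen with earlier results of these data known. Alternatives covered scaling, floor, fold limit, signal limit and choice of probe set. Scripts ran under Python 3.11.15 with pandas 2.3.3, numpy 2.4.6 and matplotlib 3.10.9.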

Additional observations from a re-analysis of the deposited data

Results flagged for a closer look

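The direction of the lineage difference in Mycn depended on the CD30 gate. The log2 ratio of Th17 over Th1 cells was -1.23 in CD30low and 1.14 in CD30high cells, past the rule on both sides. Of 7609 genes tested in both gates, 5 had opposite calls, 2 of them in the order of Mycn. The difference was not tested, because each gate has 1 array per lineage. It holds the same arrays as the CD30 difference for which the gene was chosen. With the mean of the Mycn probe sets the values were -0.41 and 0.21, and neither passed.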

How the results depend on the processing

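Under median centring and quantile normalization every count, ratio and list median stayed within the tolerance, which was 1.5 times for counts and the SD between probe sets for log2 values. Over all alternatives, 170 values of the 7 genes' log2 ratios stayed within it, 18 did not, and none reversed a called ratio. Log2 ratios of Myb were between 1.26 and 1.66 in Th1 and between 2.78 and 2.85 in Th17 cells. Those of Mycn were between 0.51 and 1.02 and between 1.13 and 3.41.

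At 1.5-fold, Myc also passed as higher in CD30high Th1 cells and Mxi1 as higher in CD30high Th17 cells. Myc also passed as higher in Th17 than in Th1 cells among CD30high cells. At that limit 1 gene was lower in CD30high cells of each lineage. Between the lineages 2 genes were higher in Th17 than in Th1 cells among CD30low cells and 1 was lower among CD30high cells. At 3-fold, 0 genes were higher in CD30high Th1 cells, 0 were higher and 0 lower between lineages in CD30low cells and 0 were higher in CD30high cells, while Mycn and Myb were still past the rule in Th17 cells. With a signal limit of 500 or a floor of 200, 1 gene was lower in Th17 than in Th1 cells among CD30low cells. That gene was Mxd4, and Mycn no longer passed there. With probe sets averaged, 1 gene was higher in CD30high Th1 and 1 in CD30high Th17 cells, and between the lineages 0 were lower in CD30low and 1 higher in CD30high cells. Without suffixes s, x and a, which leaves out Myb and Myc, 1 gene was higher in CD30high cells of each lineage, and 0 were higher and 1 lower between lineages in CD30low cells.

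The Th17 minus Th1 difference of Mycn was 1.89 with a floor of 200 and 0.62 with probe sets averaged, which gave 1.12 for Myb, 0.20 for Mxd4 and 0.61 for Mxi1; without the suffixes Mxd4 had 0.33. The median of MYB targets in Th17 cells was -0.99 with a floor of 50, -0.78 without the suffixes and -0.56 without s and x, an alternative chosen after seeing the data. In Th1 cells it was -0.17 with a floor of 200. Between lineages in CD30low cells it was 0.11 with probe sets averaged, 0.19 without the suffixes and 0.18 without s and x. The median of MYC-repressed targets between lineages in CD30high cells was 0.27 with a floor of 200. The cause of these shifts was not tested. No paired analysis was possible because the labels pair no samples and each comparison holds 1 array per group; a fit of the CD30 gate over all 4 arrays with lineage as the block was not run.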
